A study of Mus musculus with 54 samples.

Results

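The 10 genes described here control the step from G1 into S phase. They are the Ink4 inhibitors Cdkn2a, Cdkn2b, Cdkn2c and Cdkn2d, the Cip/Kip inhibitor Cdkn1b, the D-type cyclins Ccnd1, Ccnd2 and Ccnd3, and the E-type cyclins Ccne1 and Ccne2. They were taken by name from the 55487 genes of the count tables and not by a cut on any measured value. Earlier results of these data were known when they were chosen. All 10 passed the filter on low counts in both series. The study asked how Polycomb repressive complex 2 (PRC2) acts while mouse embryonic stem cells differentiate in retinoic acid. It measured messenger RNA by QuantSeq, which counts tags near the 3′ end of transcripts, in 54 libraries that form 2 series of 27. In the Ezh2 series every line was labelled Ezh1-/- and Ezh2-/-, of 129P2/Ola origin, and carried a PiggyBac transposon that held Ezh2 with the substitutions K510R, K514R and K515R (amKR), nothing (EV) or unchanged Ezh2 (WT). In the Suz12 series every line was labelled SUZ12-/- and carried a PiggyBac transposon that held SUZ12-deltadim (ddim), nothing (EV) or SUZ12 (WT). Each line was sampled in 3 libraries on day 0, in medium with LIF, CHIR99021 and PD0325901, and on days 1 and 4 in 0.1 µM retinoic acid without these 3 additions. A transposon inserts at sites that are not chosen, and whether a line is 1 clone and whether the 3 libraries of a group came from separate cultures are not given in the sources used here, so the p-values may measure only technical spread.

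Cyclin D bound to Cdk4 or Cdk6, and then cyclin E bound to Cdk2, phosphorylate the retinoblastoma protein and release the E2F factors that turn on the genes of S phase. The Ink4 proteins bind Cdk4 and Cdk6 and keep cyclin D off them, and the Cip/Kip protein encoded by Cdkn1b blocks cyclin E with Cdk2. PRC2 methylates histone H3 on lysine 27 at CpG-rich promoters, and the neighbouring genes Cdkn2a and Cdkn2b are among its classical targets. Embryonic stem cells have little Ink4 activity and a short G1 phase, and G1 lengthens as they differentiate.

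Libraries held 4223028 to 5111007 gene counts in the Ezh2 series and 3801446 to 4462441 in the Suz12 series. Values below are counts scaled to library size with TMM factors within a series (CPM), and since these are 3′ tags, levels are compared between groups and not between genes. In the Ezh2 series the EV-labelled libraries went against their label. Ezh1 was at 5.15 to 10.6 CPM in the 9 EV-labelled libraries, against 0 to 0.648 in amKR and 0 to 0.445 in WT, and Hprt, a purine salvage gene, was at 18.8 to 35.3 CPM, against 0 to 1.46 in amKR and 0 to 1.57 in WT. Ezh2 itself was at 173, 175 and 203 CPM in EV-labelled cells on day 0, against 121, 114 and 115 in amKR and 89, 88.3 and 87.7 in WT, although a 3′ tag outside a deleted part checks nothing. On day 1 the Ezh2 values of the EV-labelled cells were the lowest, at 183 to 196 CPM, against 263 to 285 in amKR and 227 to 234 in WT. The difference from WT on that day was not called (adjusted p = 0.0645). On day 4 Ezh2 was at 102 to 146 CPM in EV-labelled cells, against 27.3 to 34 in amKR and 30 to 34.9 in WT. Replicate 2 of the EV-labelled cells on day 4 stood apart from the other 2 of its group, with a chi-square per degree of freedom of 42.41 and 25.46, against 8.553 between those. The empty vector and another parental line cannot be told apart, and every direction below for the EV-labelled libraries is subject to this. Suz12 in the Suz12 series followed the labels, at 65.8, 64.6 and 73.8 CPM in EV on day 0, against 430.3, 448 and 439 in WT. The contrast was smaller later, with means of 52.9 CPM in EV against 97.1 in WT on day 1, and of 31.5 CPM in EV against 56.7 in WT on day 4. Its change after day 0 was called on both days (1.81 and 1.84 on the log2 scale, adjusted p = 9.22e-18 and 2.39e-16). The 7 pluripotency markers were detected in each day 0 group, with a sum of 2476.8 to 4911.7 CPM over the 18 libraries, and of 71.4 to 174 CPM over the 18 libraries of day 4, where Pou5f1 was at 0 in ddim. Of 6 trophectoderm markers, 4 were called higher and 1 lower in EV-labelled cells than in WT of the Ezh2 series on day 4, with sums of 1230.3 to 1677.9 CPM in EV-labelled cells against 719 to 811 in WT, and the part of this in the day 4 results was not tested. In a bulk sample, fewer cells that express a gene and less RNA per cell cannot be told apart.

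The starts of the 3 transcripts of the Cdkn2a and Cdkn2b locus are shown because these neighbouring genes rose together by day 4 in all 6 lines. Each sequence is the stretch just before the annotated start, from RefSeq's promoter windows on GRCm38.p6 (the build called mm10), read 5′ to 3′ on the minus strand. Bases inside a protein-coding GENCODE M21 transcript of the same gene that starts in the window were trimmed. The Ink4a stretch lies inside the span of the longer Arf transcript and was not trimmed for it. Capitals mark each CG pair. The start of the Arf transcript (chr4:89294654-89294869) holds 35 CG pairs in 216 bases, the start of the Ink4a transcript (chr4:89282193-89282442) 7 in 250 bases and the start of Cdkn2b (chr4:89311040-89311282) 11 in 243 bases.
Cdkn2a Arf start: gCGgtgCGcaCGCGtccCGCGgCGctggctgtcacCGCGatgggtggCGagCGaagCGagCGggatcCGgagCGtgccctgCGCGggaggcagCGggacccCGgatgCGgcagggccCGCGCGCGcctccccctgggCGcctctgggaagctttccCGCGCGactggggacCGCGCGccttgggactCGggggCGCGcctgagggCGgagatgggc
Cdkn2a Ink4a start: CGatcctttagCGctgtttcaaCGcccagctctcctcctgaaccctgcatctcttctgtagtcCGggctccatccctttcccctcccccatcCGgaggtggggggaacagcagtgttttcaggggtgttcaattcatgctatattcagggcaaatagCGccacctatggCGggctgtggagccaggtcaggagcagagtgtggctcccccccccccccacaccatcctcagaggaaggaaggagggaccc
Cdkn2b start: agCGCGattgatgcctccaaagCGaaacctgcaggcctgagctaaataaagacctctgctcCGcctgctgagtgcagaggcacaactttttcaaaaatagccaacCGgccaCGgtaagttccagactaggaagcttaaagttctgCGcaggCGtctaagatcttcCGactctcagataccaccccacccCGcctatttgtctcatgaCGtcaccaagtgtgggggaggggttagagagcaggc
Over untrimmed windows of 250 bases, the Arf start had 40 CG pairs (percentile 98.9 among the 32841 windows of the table), while the Ink4a start had 7 (percentile 57) and Cdkn2b 12 (percentile 68.5), against a median of 6. RefSeq's table also held windows for Cdkn2c, Cdkn2d, Cdkn1b, Ccnd3 and Ccne1, and none for Ccnd1, Ccnd2 and Ccne2. Ccne1 had 34 CG pairs (percentile 97) and Cdkn1b 28 (percentile 93.2). GGGCGG, the GC box bound by Sp1, was searched on both strands, and 32.7% of all windows hold it. It was found 2 times at the Arf start, 4 times at Ccne1, 3 times at Cdkn2d and 1 time at Cdkn1b. The upstream window of Cdkn2c held it 3 times, and those of Ccnd3 2 times and 1 time. Ink4a, Cdkn2b and the other Cdkn2c window held none. The E2F forms TTTCGCGC and TTTGGCGC (in 0.256% and 0.417% of all windows), the E box CACGTG (6.02%) and the direct repeat of AGGTCA, 5 bases apart, known from retinoic acid receptors (0.00913%) were in none of the members' windows, which says only that these letters are not there.

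Few of the 10 genes were called between a mutant and WT, more between EV and WT, and most over time. A call here is an adjusted p under 0.05 in edgeR's quasi-likelihood test with Benjamini-Hochberg adjustment over all genes of a series. Between amKR and WT, Cdkn1b was called higher on day 0, none on day 1 and Ccnd1 higher on day 4, beside 4.48%, 1.63% and 1.71% of all genes. Between ddim and WT none was called on any day, beside 0%, 0.0623% and 0.152% of all genes; 0, 3 and 4 of the 10 had an unadjusted p under 0.05, and DESeq2 called 1 of these 30 comparisons, Cdkn1b on day 4. Between EV-labelled cells and WT of the Ezh2 series, 5, 3 and 4 of 10 were called on days 0, 1 and 4, beside 29.3%, 20.9% and 17.8% of all genes, which is within about 2 genes of the background on each day. Between EV and WT of the Suz12 series 2, 1 and 1 of 10 were called, beside 10.8%, 7.91% and 7.64%, within 1 gene of it. Apart from calls, libraries of ddim and WT did not overlap for 1, 4 and 7 of 10 members on days 0, 1 and 4. The shares of all genes were 8.57%, 11.9% and 15.9%. Between amKR and WT the members without overlap were 4, 3 and 1, beside 30.4%, 23.6% and 18.1%. For EV against WT they were 5, 5 and 3 in the Ezh2 series, beside 41.1%, 37.5% and 28.7%. In the Suz12 series they were 5, 3 and 7, beside 28%, 23.9% and 26.8%. The comparisons of the mutant and of EV with WT share the WT libraries.

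**Figure D1:**
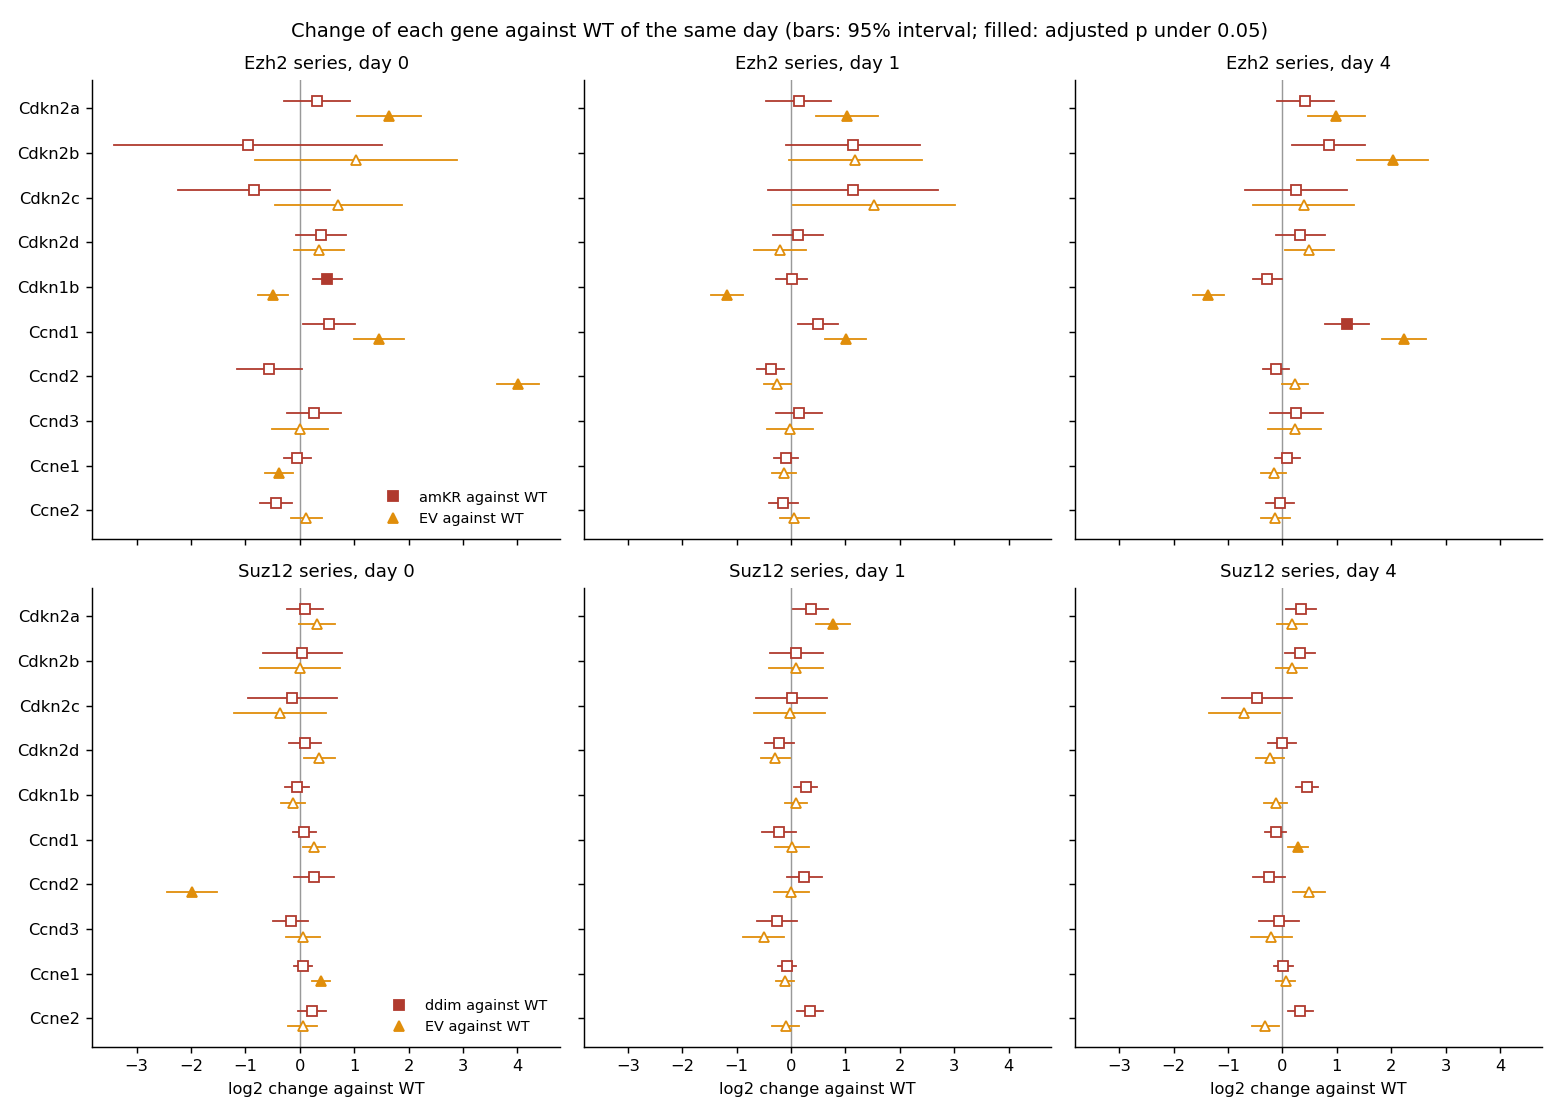
Log2 change against WT of each of the 10 genes, with a panel for each series and day. Squares stand for the mutant against WT and triangles for EV against WT, bars for the 95% interval, and filled symbols for an adjusted p under 0.05. Ccnd2 on day 0 lies farthest from 0, at 4.00 in EV-labelled cells of the Ezh2 series and at -1.98 in EV cells of the Suz12 series, and no square is filled in the Suz12 series.

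Cdkn2a (ENSMUSG00000044303, chr4:89274471-89294653, minus strand, mm10) encodes Ink4a and, from an upstream first exon in another reading frame, Arf, which restrains Mdm2 and so stabilises p53. Both transcripts end in the same 3′ region, so a tag does not say which of them it came from. In the Ezh2 series on day 0, Cdkn2a was at 30.8, 46.7 and 38 CPM in amKR and at 123, 98 and 66.4 in EV-labelled cells, against 29.8, 20.9 and 41.8 in WT. The EV-labelled libraries were all above those of WT, and amKR and WT overlapped. On day 1 it was at 57.7, 37.8 and 35.9 CPM in amKR and at 95.2, 73.9 and 74.7 in EV-labelled cells, against 37.5, 39 and 42.8 in WT, in the same pattern. On day 4 it was at 222, 249 and 255 CPM in amKR and at 413, 215 and 449 in EV-labelled cells, against 227, 166 and 148 in WT, and here replicate 2 of the EV-labelled cells, the library that stood apart, lay within the range of WT. EV-labelled cells were 3.1-fold higher than WT on day 0 (log2 change 1.63 ± 0.30, adjusted p = 0.000359), 2.04-fold on day 1 (1.03 ± 0.29, adjusted p = 0.0156) and 1.99-fold on day 4 (0.99 ± 0.27, adjusted p = 0.012). The calls of days 1 and 4 were lost without any 1 of several libraries, at similar log2 changes: without any 1 of 3 on day 1 they were 0.90 to 1.02 (adjusted p = 0.0503 to 0.069), and without any 1 of 4 on day 4 they were 0.80 to 0.94 (adjusted p = 0.0515 to 0.0662). The day 4 call was also lost when only the libraries compared were fitted (adjusted p = 0.0596). The call of day 0 did not depend on 1 library. The amKR cells were not called different from WT on any day, with 95% intervals of -0.29 to 0.92, -0.45 to 0.73 and -0.10 to 0.94 on the log2 scale. They fell below the EV-labelled cells on day 0 (log2 change -1.31 ± 0.29, adjusted p = 0.00326) and on day 1 (-0.89 ± 0.29, adjusted p = 0.0451), and the day 1 call was lost in 8 alternatives, at log2 changes of -0.76 to -0.96. These were the fits without any 1 of 5 libraries (adjusted p up to 0.152), with no filter on low counts (0.114), with a stricter one (0.0588) and with an offset by chromosome (0.0537). On day 4 amKR was not called against the EV-labelled cells (-0.57, adjusted p = 0.205), but it was without EV-labelled replicate 2 (-0.83, adjusted p = 0.0314).

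Cdkn2a in the Suz12 series was at 73, 91.5 and 114 CPM in ddim and at 115, 104 and 105 in EV, against 91.1, 84.3 and 83.9 in WT, on day 0. All 3 EV libraries were above WT, but the difference was not called (log2 change 0.32 ± 0.17, adjusted p = 0.25). On day 1 it was at 95.1, 98.4 and 112 CPM in ddim and at 137, 139.6 and 130.3 in EV, against 101, 86.8 and 51.3 in WT. WT replicate 3, the lowest of these, stood apart from the other 2 of its group. Its chi-square per degree of freedom was 8.557 and 9.987, against 2.109 between those. EV rose 1.71-fold over WT with no overlap (log2 change 0.77 ± 0.16, adjusted p = 0.0046), a call lost when only the 6 libraries compared were fitted (adjusted p = 0.138). On day 4 it was at 625, 589 and 548 CPM in ddim and at 534, 498 and 544 in EV, against 479, 458 and 453 in WT. Both were above every WT library, and neither was called (log2 change 0.34 ± 0.14 with adjusted p = 0.476 for ddim and 0.18 ± 0.14 with adjusted p = 0.519 for EV). The excess of EV over WT on day 0 was smaller in the Suz12 series than in the Ezh2 series, by 1.26 ± 0.37 on the log2 scale (adjusted p = 0.0185), a call lost without EV-labelled replicate 1 or WT replicate 2 of the Ezh2 series (adjusted p = 0.0672 and 0.0677).

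Cdkn2a rose by day 4 of retinoic acid in every line and was called in none on day 1. Against day 0, day 4 was 6.28-fold higher in amKR (log2 change 2.65 ± 0.29, adjusted p = 1.31e-07), 3.74-fold in EV-labelled cells (1.90 ± 0.28, adjusted p = 5.35e-06) and 5.84-fold in WT of the Ezh2 series (2.54 ± 0.30, adjusted p = 3.33e-07). In the Suz12 series it was 6.35-fold higher in ddim (adjusted p = 3.14e-12), 4.86-fold in EV (adjusted p = 3.03e-11) and 5.36-fold in WT (adjusted p = 1.74e-11). The log2 changes of day 1 were -0.24 to 0.37. Markers of some other cell types moved with the day 4 rise. All 9 primitive endoderm markers were called higher on day 4 in each of the 6 lines, with median log2 changes of 5.71 to 8.44. So were 8 of 9 fibroblast and feeder markers in each line of the Suz12 series and 6 of the 7 tested in each line of the Ezh2 series, with medians of 5.92 to 7.07. The fibroblast sums on day 4 were 1480.6 to 1821.6 CPM in the Suz12 series and 257 to 346 in the Ezh2 series, against 7.75 to 21.9 and 2.96 to 15.8 CPM on day 0. Postn was at 0 on day 0 in 5 of the 6 lines. In EV-labelled cells 1 fibroblast marker was called lower on day 4. Of 5 trophectoderm markers tested, 2 or 3 were called higher and 1 or 2 lower in each line. Of 5 neural markers tested, 4 were higher in each line of the Ezh2 series, with 0 or 1 lower. In each line of the Suz12 series 1 or 3 neural markers were higher and 2 lower. The part of all these markers in the changes over time of Cdkn2a and of the other members was not tested. The day 4 change of WT was not called different between the series (-0.06 on the log2 scale, 95% interval -0.76 to 0.64), nor did the effect of any line on Cdkn2a change with time by a called amount. In order of level, the 3 day 4 groups stood highest in each series, and below them in the Ezh2 series came EV-labelled cells on days 0 and 1, then the 4 remaining groups of amKR and WT, whose means of 30.9 to 43.8 CPM did not differ beyond their spread in the pairs tested. In the Suz12 series the 6 groups of days 0 and 1 had means of 79.5 to 135 CPM, with EV on day 1 highest and WT on day 1 lowest, the 1 pair among those tested that was called.

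The genes around Cdkn2a were nearly silent apart from Cdkn2b and Mtap, a methionine salvage enzyme. Of the 10 nearest genes in the table, 5 on each side, the other 8 had 0 to 31 counts over all 54 libraries. Mtap on day 0 of the Ezh2 series was at 71.5, 72.8 and 68.7 CPM in amKR and at 122, 119 and 118 in EV-labelled cells, against 55.9, 59.1 and 59.7 in WT. The EV-labelled cells stood above WT on each day, by 1.04, 0.72 and 0.27 on the log2 scale, each called, and in the Suz12 series EV was called higher on day 0 (0.34).

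Cdkn2b (ENSMUSG00000073802, chr4:89306299-89311039, minus strand) encodes the Ink4 inhibitor that transforming growth factor beta is known to induce. On day 0 it was close to the limit of counting in the Ezh2 series, at 0.219, 0.227 and 0.216 CPM in amKR, 1 count in each library, and at 0.244, 1.18 and 1.41 in EV-labelled cells, against 0, 0.682 and 0.678 in WT. On day 1 it was at 2.78, 3.17 and 1.99 CPM in amKR and at 2.57, 3.62 and 1.91 in EV-labelled cells, against 0.899, 1.08 and 1.57 in WT. Both stood above every WT library and neither was called (adjusted p = 0.359 for amKR and 0.194 for EV-labelled cells). On day 4 it was at 11.5, 14.4 and 27.1 CPM in amKR and at 57.8, 23.4 and 39.2 in EV-labelled cells, against 13.8, 10.3 and 5.28 in WT. The EV-labelled cells were 4.08-fold higher than WT with no overlap (log2 change 2.03 ± 0.33, adjusted p = 5.41e-05), and no alternative ended this call. The amKR cells overlapped with WT (0.85 ± 0.34, adjusted p = 0.295). They were 2.26-fold lower than the EV-labelled cells (-1.18 ± 0.32, adjusted p = 0.0132), a call lost without any 1 of 3 libraries (adjusted p up to 0.125) and when only the 6 libraries compared were fitted (0.172).

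Cdkn2b was called in no comparison of lines in the Suz12 series. On day 4 it was at 51.9, 53.3 and 49.8 CPM in ddim and at 48.4, 49.8 and 41.6 in EV. WT was at 36.8, 43.5 and 43.9 CPM. The ddim libraries lay above those of WT with no overlap, by 0.32 ± 0.14 on the log2 scale (adjusted p = 0.49). The change of EV against WT on day 4 was smaller in the Suz12 series than in the Ezh2 series, by 1.86 ± 0.37 on the log2 scale (adjusted p = 0.000499). Over time, the gene rose in all 6 lines by day 4. The rise was 16.3-fold in ddim (adjusted p = 1.41e-25), 15.2-fold in EV (adjusted p = 1.23e-24) and 13.5-fold in WT (adjusted p = 2.34e-23) of the Suz12 series. Each was already called on day 1, at 2.15-, 2.21- and 2.08-fold. The day 1 call in WT was lost without WT day 0 replicate 2 (log2 change 0.705 in place of 1.06, adjusted p = 0.0556). The day 4 rise in the Ezh2 series was 41-fold in EV-labelled cells (adjusted p = 1.7e-10) and 20.5-fold in WT (adjusted p = 7.11e-07), and in amKR 268 counts on day 4 stood against 3 on day 0, a ratio of 80.4 after scaling to library size, with an exact 95% counting interval of 27.2 to 392. On day 1 of amKR 34 counts stood against 3, a ratio of 11.9 with an interval of 3.75 to 60.7.

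**Figure D2:**
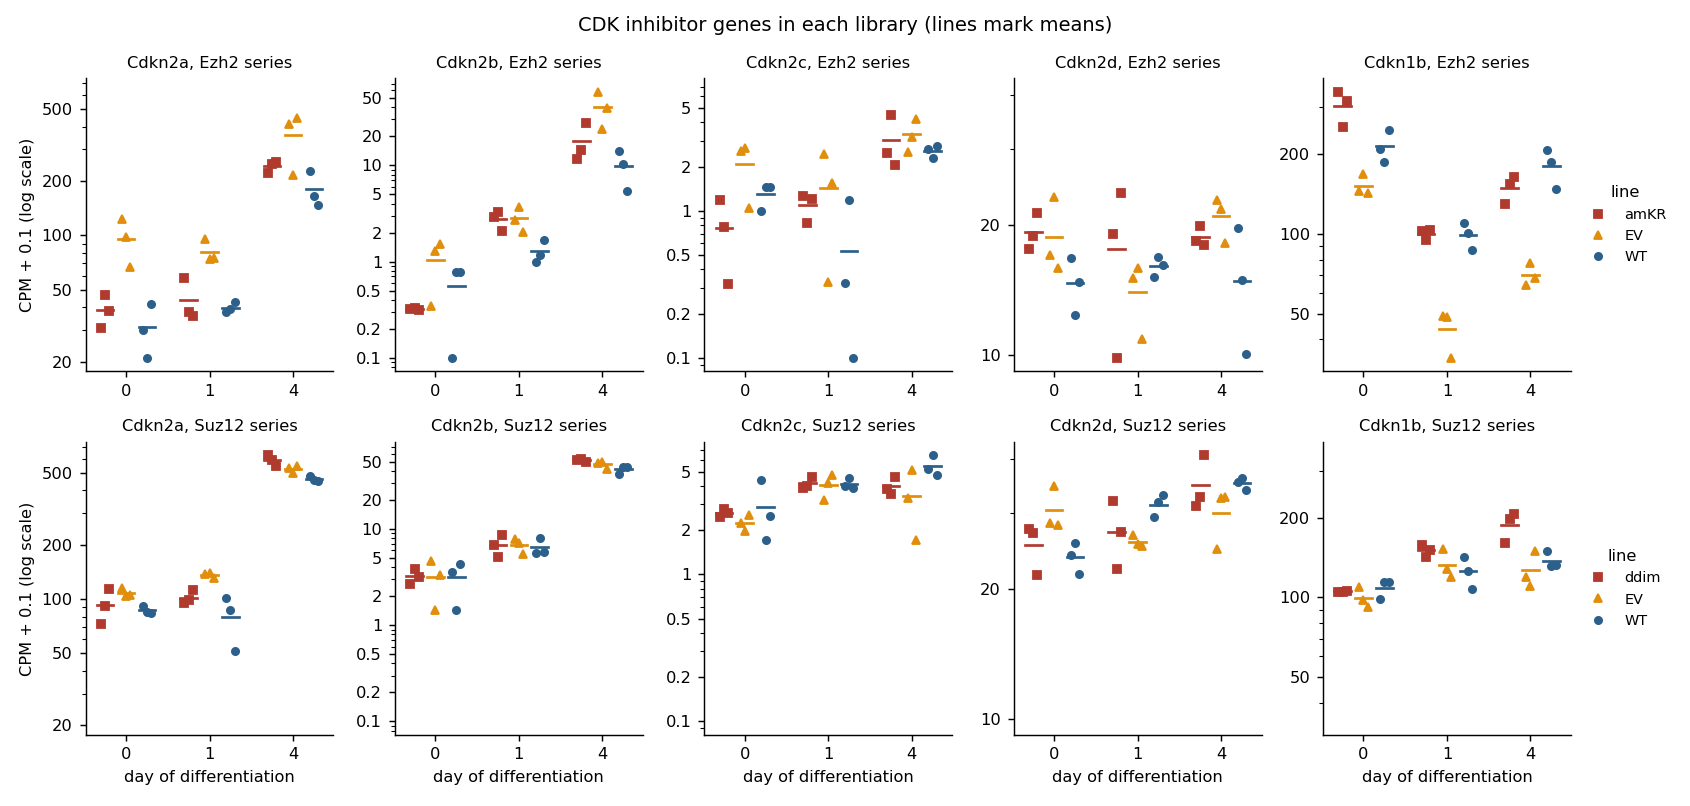
CPM + 0.1 of the 5 inhibitor genes in each of the 54 libraries on a log axis, with a row for each series and a column for each gene. Within each day the mutant, EV and WT stand from left to right, points are libraries and lines are means of 3. Cdkn2a and Cdkn2b are highest on day 4 in every line, and Cdkn1b is lowest in EV-labelled cells of the Ezh2 series, at 34 to 48.9 CPM on day 1.

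Cdkn2c and Cdkn2d, the remaining Ink4 genes, were called in no comparison of lines within a series. Cdkn2c (ENSMUSG00000028551, chr4:109660876-109667189), an inhibitor known from precursor cells that divide before they mature, was at 0 to 4.39 CPM in the Ezh2 series and 1.61 to 6.35 in the Suz12 series, and with 623 counts over 54 libraries only large changes could be detected. It was at 2.39, 4.39 and 1.96 CPM in amKR on day 4, against 1.09, 0.68 and 0.216 on day 0 (log2 change 2.09 ± 0.61, adjusted p = 0.00379). In WT of the Suz12 series it was at 5.13, 6.35 and 4.65 CPM on day 4, against 4.3, 1.61 and 2.39 on day 0 (0.95 ± 0.36, adjusted p = 0.0138), a call lost without any 1 of 3 libraries (adjusted p up to 0.107). Cdkn2d (ENSMUSG00000096472, chr9:21288410-21291407), an inhibitor whose level is known to vary through the cell cycle, stayed at 9.75 to 23.7 CPM in the Ezh2 series with no call over time. In the Suz12 series it was at 31.1, 32.6 and 40.7 CPM in ddim on day 4, against 27.5, 26.8 and 21.4 on day 0, and rose 1.37-fold (adjusted p = 0.00287, and 0.0524 without ddim day 4 replicate 3). In WT of that series it was at 35.2, 36 and 33.9 CPM on day 4, against 23.9, 25.4 and 21.5 on day 0, and rose 1.48-fold (log2 change 0.57 ± 0.14, adjusted p = 0.000317). In EV of the Suz12 series it was at 24.7, 32.4 and 32.6 CPM on day 4, against 28.3, 34.5 and 28.1 on day 0, with overlapping libraries, and the difference of this change from that of WT was not called (-0.59, adjusted p = 0.0591).

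Cdkn1b (ENSMUSG00000003031, chr6:134920401-134925513, plus strand) encodes p27, which holds cyclin E with Cdk2 inactive in resting cells. It was the 1 inhibitor called lower in EV-labelled cells than in WT, and the 1 called lower on day 1 than on day 0 in the Ezh2 series. On day 0 it was at 343, 253 and 316 CPM in amKR and at 145, 168 and 142 in EV-labelled cells, against 209, 186 and 246 in WT. The 3 lines did not overlap. The amKR cells were 1.42-fold higher than WT (log2 change 0.51 ± 0.14, adjusted p = 0.0293), a call lost without amKR replicate 1 or 3 or WT replicate 1 or 2 (adjusted p = 0.092 to 0.182). The EV-labelled cells were 1.41-fold lower than WT (-0.50 ± 0.14, adjusted p = 0.00682, and 0.0608 without WT replicate 3). On day 1 it was at 102, 94.6 and 103 CPM in amKR and at 48.9, 48.4 and 34 in EV-labelled cells, against 109.9, 101 and 87 in WT. By day 4 it was at 129.9, 154 and 163 CPM in amKR and at 63.9, 77.3 and 68.3 in EV-labelled cells, against 206, 187 and 147 in WT. On both days amKR and WT overlapped and the EV-labelled cells lay below both. EV-labelled cells were 2.27-fold lower than WT on day 1 (-1.18 ± 0.15, adjusted p = 3.31e-07) and 2.57-fold lower on day 4 (-1.36 ± 0.14, adjusted p = 1e-08). On day 1, beside this result and those of Cdkn2a and Ccnd1, all 9 primitive endoderm markers were called higher in EV-labelled cells (median log2 change 4.25). Their sums were 360.1 to 388 CPM in EV-labelled cells against 50.1 to 59 in WT, where Foxa2 was at 0. Their part in these results was not tested. The gap to WT was wider on day 4 than on day 0 by 0.87 ± 0.20 on the log2 scale (adjusted p = 0.00278) and on day 1 by 0.68 ± 0.20 (adjusted p = 0.0479, and 0.184 at most without 1 library). Against the EV-labelled cells amKR was higher on all 3 days, by 1.00 ± 0.14, 1.19 ± 0.15 and 1.09 ± 0.14 on the log2 scale (adjusted p = 2.58e-06, 4.63e-07 and 1.08e-06).

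Chromosome 6, which carries Cdkn1b and Ccnd2, was lower as a whole in the EV-labelled cells. The median log2 change of its 721 tested genes against WT was -0.27, -0.25 and -0.33 on days 0, 1 and 4, against 0.04, 0.07 and 0.01 for all genes, and in amKR it was -0.18, -0.09 and -0.15. When changes were taken relative to the chromosome, the day 0 difference of Cdkn1b between EV-labelled cells and WT was -0.27 and not called (adjusted p = 0.156), and the calls of days 1 and 4 were kept. The number of copies of chromosome 6 in these lines was not tested.

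Cdkn1b went the other way with time in the Suz12 series. By day 4 it was at 160, 197 and 207 CPM in ddim and at 119.8, 110.3 and 149 in EV, against 149, 131 and 132 in WT. The ddim libraries were all above those of WT, with a log2 change of 0.45 ± 0.10 that narrowly missed the threshold (adjusted p = 0.0577); it was called with no filter on low counts (adjusted p = 0.000119), with DESeq2 (0.0163), when only the 6 libraries compared were fitted (4.47e-06) and without ddim replicate 1 (0.0048). Against EV, ddim rose 1.49-fold (0.58 ± 0.10, adjusted p = 0.000143). On day 0 the libraries of the 3 lines lay between 91.9 and 114 CPM, and EV was not called against WT on any day. Against day 0, Cdkn1b on day 4 rose 1.79-fold in ddim (adjusted p = 9.71e-09), 1.27-fold in EV (log2 change 0.34, adjusted p = 0.00553, but 0.21 and 0.0804 without EV day 4 replicate 3) and 1.26-fold in WT (adjusted p = 0.00623). In the Ezh2 series day 1 was 3.05-fold lower than day 0 in amKR, 3.46-fold lower in EV-labelled cells and 2.16-fold lower in WT (adjusted p = 5.02e-11, 1.53e-11 and 1.04e-07). By day 4 WT was no longer called below day 0 (-0.25 ± 0.14, adjusted p = 0.12), while amKR and the EV-labelled cells still were (-1.03 and -1.12, adjusted p = 1.15e-07 and 4.95e-08).

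Ccnd1 (ENSMUSG00000070348, chr7:144929931-144939925, minus strand) encodes cyclin D1, the D-type cyclin known for its response to growth factors and Wnt signals. Of the members it was the 1 called in amKR late, and it was higher in the EV-labelled cells on each day. On day 0 it was at 12.5, 16.8 and 20.5 CPM in amKR and at 32.9, 36 and 25.7 in EV-labelled cells, against 13.6, 9.78 and 10.9 in WT. A day into retinoic acid it stood at 108, 67.8 and 97.9 CPM in amKR and at 154, 125 and 109 in EV-labelled cells, against 67.2, 64.6 and 62.1 in WT. By day 4 it was at 45.8, 50.9 and 55.6 CPM in amKR and at 133, 79.1 and 105 in EV-labelled cells, against 27.7, 17.1 and 22.1 in WT. On days 1 and 4 the 3 lines stood in the same order with no overlap, the EV-labelled cells highest and WT lowest. On day 4 amKR was 2.27-fold higher than WT (log2 change 1.18 ± 0.21, adjusted p = 0.00159), a call kept under every alternative. On days 0 and 1 amKR was not called against WT (0.54 ± 0.25 and 0.49 ± 0.19, adjusted p = 0.207 and 0.168). EV-labelled cells exceeded WT 2.76-fold, 2.01-fold and 4.73-fold on days 0, 1 and 4 (adjusted p = 2.96e-05, 0.000258 and 3.06e-09), and no alternative ended these calls. The amKR cells were below the EV-labelled cells on day 0 by 1.9-fold and on day 4 by 2.09-fold (adjusted p = 0.00401 and 0.00027). The excess of the EV-labelled cells over WT was not called larger on day 4 than on day 0 (0.78, adjusted p = 0.108), but it was without EV-labelled day 4 replicate 2 (0.95, adjusted p = 0.0332).

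Ccnd1 lay close together in the 3 lines of the Suz12 series. The day 4 levels were 83.2, 82.5 and 86.8 CPM in ddim and 119.8, 105 and 110.4 in EV, against 86.9, 88.6 and 99.3 in WT. EV was 1.22-fold higher than WT (log2 change 0.29 ± 0.09, adjusted p = 0.0458, and up to 0.231 in the 9 alternatives that ended the call). The ddim cells were 1.33-fold lower than EV (-0.41 ± 0.09, adjusted p = 0.00158) and were not called against WT on any day, with 95% intervals of -0.13 to 0.29, -0.54 to 0.10 and -0.31 to 0.07 on the log2 scale. The excess of EV over WT was smaller in the Suz12 series than in the Ezh2 series on each day, by 1.15 ± 0.24, 0.90 ± 0.24 and 1.96 ± 0.21 (adjusted p = 0.000459, 0.00692 and 1.16e-09).

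Ccnd2 (ENSMUSG00000000184, chr6:127125162-127152193, minus strand) encodes cyclin D2, another partner of Cdk4 and Cdk6, and it rose in all 6 lines after day 0, from different starting levels. On day 0 of the Ezh2 series it was at 2.4, 1.13 and 3.89 CPM in amKR and at 66.5, 49.5 and 62.4 in EV-labelled cells, against 4.67, 2.27 and 4.07 in WT. The EV-labelled cells lay far above both other lines, which overlapped. They were 16-fold higher than WT (log2 change 4.00 ± 0.20, adjusted p = 2.47e-16), and amKR was 23.6-fold lower than the EV-labelled cells (-4.56 ± 0.21, adjusted p = 6.43e-17). On day 1 Ccnd2 was at 268, 254 and 233 CPM in amKR and at 286, 247 and 288 in EV-labelled cells, against 350.5, 311 and 319 in WT. By day 4 it was at 1250.8, 1244.6 and 1255 CPM in amKR and at 1460.1, 1747.6 and 1557.1 in EV-labelled cells, against 1324.5, 1231.8 and 1504.1 in WT. Neither amKR nor the EV-labelled cells were called against WT on these days. The fall of the excess of EV-labelled cells over WT after day 0 was called on day 1 (-4.26 ± 0.24, adjusted p = 3.39e-14) and on day 4 (-3.77 ± 0.24, adjusted p = 2.94e-13). Taken relative to chromosome 6, the EV-labelled cells were called above WT on day 4 (0.57, adjusted p = 0.00202).

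EV of the Suz12 series went the other way on day 0. Ccnd2 was at 87.8, 82.7 and 146 CPM in ddim and at 18.4, 17.9 and 30.3 in EV, against 72.3, 77.4 and 113 in WT. EV lay below all libraries of the other lines, 3.94-fold below WT (log2 change -1.98 ± 0.23, adjusted p = 8.79e-06), and ddim was 4.74-fold above EV (2.24 ± 0.23, adjusted p = 1.31e-06). Replicate 3 was the highest in each of the 3 lines. A day into retinoic acid it stood at 220.3, 228 and 253 CPM in ddim and at 192, 199 and 206 in EV, against 203, 214 and 177 in WT, with no call. By day 4 it was at 1324, 1407 and 1354.7 CPM in ddim and at 2285.8, 2284.6 and 2295.3 in EV, against 1748.4, 1579.2 and 1539.4 in WT. EV was now the highest line, just short of the threshold against WT (0.50 ± 0.15, adjusted p = 0.051). The ddim cells were 1.68-fold lower than EV (-0.75 ± 0.15, adjusted p = 0.00238). All ddim libraries also lay below those of WT, a difference that was not called. The difference of EV from WT changed by 1.99 ± 0.29 by day 1 (adjusted p = 0.000339) and by 2.48 ± 0.28 by day 4 (adjusted p = 8.48e-06). The day 0 difference of EV from WT itself differed between the series by -5.93 ± 0.27, Suz12 minus Ezh2 (adjusted p = 2.84e-19), and on days 1 and 4 no such difference was called. On day 0 of both series the sum of 9 primitive endoderm markers moved in the same direction as Ccnd2, at 29.7 to 43 CPM in EV against 56.7 to 61.6 in WT of the Suz12 series, and at 87.8 to 97.9 CPM in EV-labelled cells against 13.6 to 18.3 in WT of the Ezh2 series. None of the 9 was called higher and 2 were called lower in EV of the Suz12 series. In EV-labelled cells of the Ezh2 series 6 were called higher and none lower, and all 9 had counts in these 4 groups. Later days differed. On day 1 of the Ezh2 series all 9 were called higher, while Ccnd2 was at 247 to 288 CPM in EV-labelled cells against 311 to 350.5 in WT. On day 4 of the Suz12 series 4 were called lower and none higher, while the Ccnd2 libraries of EV lay above those of WT. The part of these markers in the result was not tested.

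Ccnd3 (ENSMUSG00000034165, chr17:47505051-47599691, plus strand) encodes cyclin D3, known from lymphocyte precursors, and no comparison of lines called it in either series. In WT of the Ezh2 series it was at 10.3, 9.69 and 9.87 CPM on day 1, against 4.9, 5 and 4.07 on day 0 (2.13-fold higher, adjusted p = 0.000285), and at 4.26, 4.34 and 4.67 CPM on day 4. It rose on day 1 in amKR and in EV-labelled cells as well (1.97-fold and 2.1-fold, adjusted p = 0.000622 and 0.000409). In WT of the Suz12 series it was at 10.7, 15.5 and 18.6 CPM on day 1, against 26.6, 31 and 22 on day 0 (1.77-fold lower, adjusted p = 3.17e-05). The ddim and EV cells of that series fell on day 1 too, 1.88-fold and 2.6-fold (adjusted p = 1.15e-05 and 1.05e-09). Ccnd3 overlaps Bysl on the opposite strand, which had 18930 counts against 2729 for Ccnd3, and whether the counting used strand is not given in the sources used here, so tags at the overlap may be shared. Ccnd1 likewise overlaps LTO1 (1594 counts) and Ccne2 overlaps Ints8 (2233 counts).

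**Figure D3:**
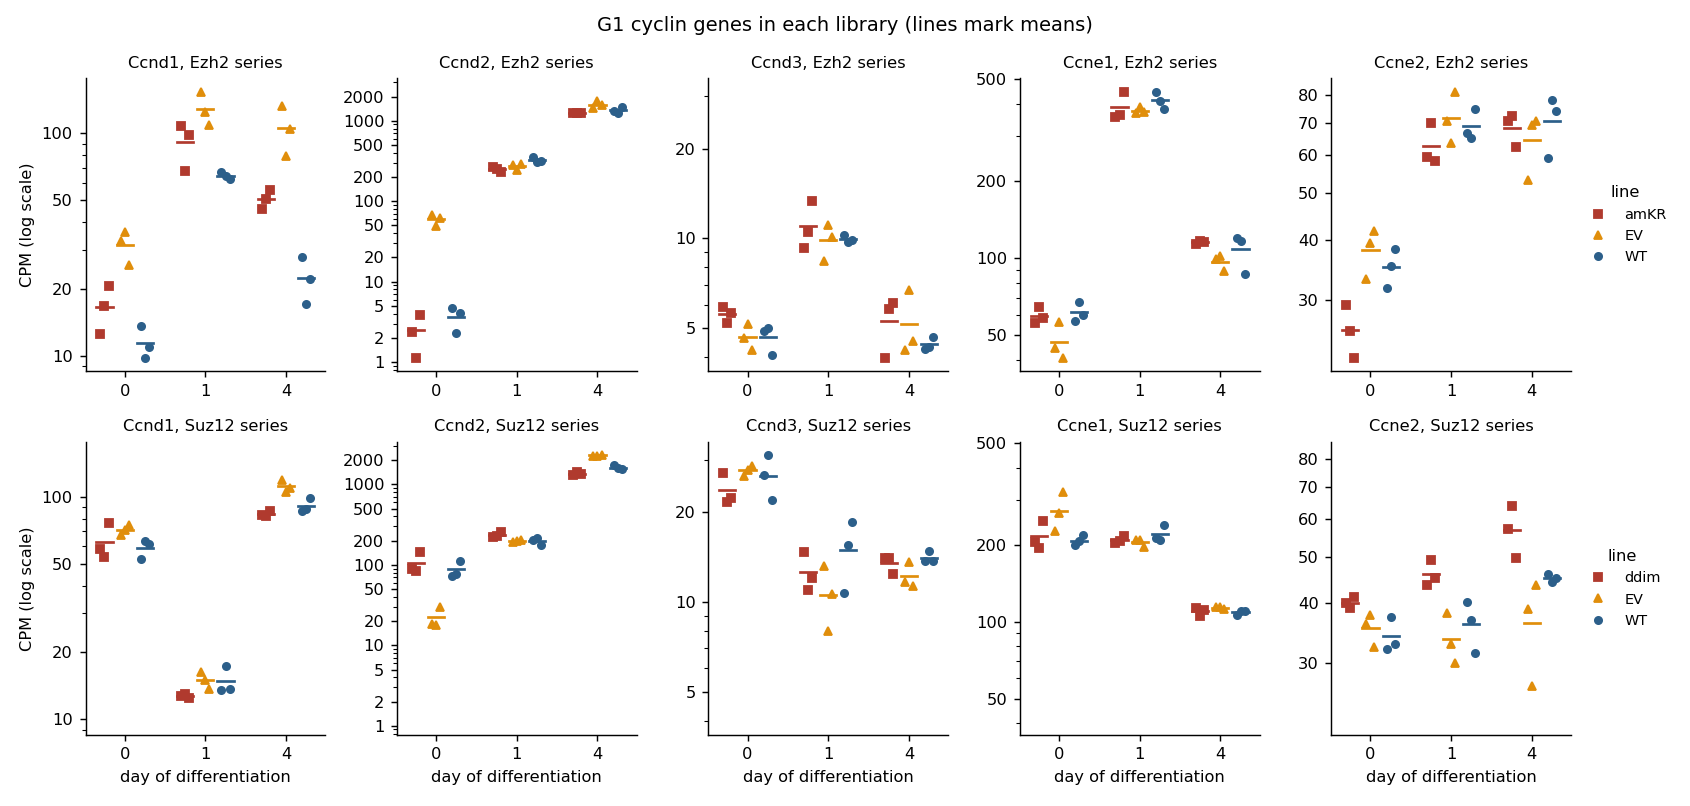
CPM of the 5 cyclin genes in each of the 54 libraries on a log axis, with a row for each series and a column for each gene. Within each day the mutant, EV and WT stand from left to right, points are libraries and lines are means of 3. Ccnd2 climbs in every line to 1231.8 to 2295.3 CPM on day 4, and Ccnd1 is highest on day 1 in the Ezh2 series and lowest on day 1 in the Suz12 series.

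Ccne1 (ENSMUSG00000002068, chr7:38097984-38107534, minus strand) encodes cyclin E1, which activates Cdk2 at the start of S phase. It set no mutant apart from WT on any day, with every 95% interval for amKR within -0.32 to 0.32 and for ddim within -0.24 to 0.22 on the log2 scale. On day 0 of the Ezh2 series it was at 55.5, 64.4 and 58.3 CPM in amKR and at 44.6, 56 and 40.7 in EV-labelled cells, against 56.8, 67.6 and 59.7 in WT. The EV-labelled cells were 1.3-fold lower than WT (log2 change -0.38 ± 0.13, adjusted p = 0.0255), a call lost without EV-labelled replicate 1 or 3 or WT replicate 2 (adjusted p = 0.0892 to 0.131) and when only the libraries compared were fitted (0.0732). On day 0 of the Suz12 series it was at 205, 194 and 248 CPM in ddim and at 227, 267 and 321 in EV, against 199, 206 and 218 in WT. EV was 1.31-fold higher than WT with no overlap (0.39 ± 0.08, adjusted p = 0.00061). The ddim cells were below EV (-0.33 ± 0.08, adjusted p = 0.00324), a call lost without EV replicate 3 (-0.20, adjusted p = 0.136) or ddim replicate 2 (0.0552) and when only the libraries compared were fitted (0.101). Thus on day 0 EV lay above WT in the Suz12 series and below it in the Ezh2 series, a difference of 0.82 ± 0.17 (adjusted p = 0.000317). The excess in the Suz12 series was smaller on day 1 (change -0.50 ± 0.12, adjusted p = 0.00568, and 0.0631 without EV day 0 replicate 3).

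Ccne2 (ENSMUSG00000028212, chr4:11191351-11204779, plus strand) encodes cyclin E2, a paralog with the same partner. On day 4 of the Suz12 series it was at 57.3, 63.8 and 49.8 CPM in ddim and at 38.9, 26.9 and 43.7 in EV, against 46.1, 44.4 and 45.3 in WT. The ddim libraries lay above those of WT on all 3 days, but no difference was called (log2 change 0.23, 0.35 and 0.33, adjusted p = 1, 0.353 and 0.354). Against EV, ddim was 1.36-fold higher on day 1 (0.45 ± 0.13, adjusted p = 0.018, and up to 0.141 without 1 library) and 1.56-fold on day 4 (0.64 ± 0.12, adjusted p = 9.25e-05). On day 0 of the Ezh2 series it was at 29.3, 25.8 and 22.7 CPM in amKR and at 33.1, 39.3 and 41.7 in EV-labelled cells, against 31.8, 35.3 and 38.2 in WT. The amKR libraries were all below the other lines; the difference from WT was not called (-0.44 ± 0.15, adjusted p = 0.0862) and that from the EV-labelled cells was (-0.55 ± 0.15, adjusted p = 0.00822, and 0.063 without amKR replicate 3).

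Against the EV cells, then, amKR differed in 5, 2 and 3 of the 10 genes on days 0, 1 and 4, beside 17.5%, 14.7% and 10.8% of all genes, and ddim in 2, 1 and 4, beside 11.7%, 6.28% and 11.4%. On day 0 amKR was called higher than the EV-labelled cells for Cdkn1b and lower for Cdkn2a, Ccnd1, Ccnd2 and Ccne2. On day 4 ddim was called higher than EV for Cdkn1b and Ccne2 and lower for Ccnd1 and Ccnd2. These comparisons share the EV libraries with those of EV against WT.

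The difference of EV from WT changed after day 0 for few members. In the Ezh2 series 2 of 10 were called on day 1 and 2 on day 4, namely Cdkn1b and Ccnd2, beside 4.35% and 12.4% of all genes. For the Suz12 series these were Ccnd2 and Ccne1 on day 1 and Ccnd2 on day 4, beside 3.48% and 6.91%. No member was called for amKR, beside 0% and 0.156%, or for ddim, beside 0% on both days, with 1 and 1 members of amKR and 1 and 2 of ddim at an unadjusted p under 0.05. Set against each other, the differences of EV from WT differed between the 2 series by a called amount for 4 of 10 members on day 0, 2 on day 1 and 4 on day 4, beside 18.7%, 14.9% and 14.3% of all genes.

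Over the time course 5 or more of the 10 members were called in every line on each day. With 10 genes, nothing is read from how these shares lie against the background. On day 1 against day 0, 7 of 10 were called in amKR, 6 in EV-labelled cells and 6 in WT of the Ezh2 series, beside 47.9%, 46.7% and 46.5% of all genes. In the Suz12 series 5 were called in ddim, 7 in EV and 5 in WT, beside 62.4%, 61.8% and 61.9%. On day 4 against day 0, 8, 7 and 6 were called in amKR, EV-labelled cells and WT, beside 59.9%, 60.8% and 57%, and 9, 7 and 10 in ddim, EV and WT of the Suz12 series, beside 73.6%, 74.1% and 73.6%. The median log2 change of the members in WT was 1.03 on day 1 and 0.99 on day 4 in the Ezh2 series, and 0.14 and 0.60 in the Suz12 series, against medians over all genes between -0.03 and 0.03.

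The cyclins took different courses on day 1 in the 2 series. The WT lines were set beside each other in a joint fit of the 36 EV and WT libraries, which was added after the values were seen. Ccnd1 on day 1 fell 3.99-fold against day 0 in WT of the Suz12 series, at 13.5, 17.4 and 13.7 CPM against 52.9, 63.4 and 61.3, and rose 5.65-fold in WT of the Ezh2 series, at 67.2, 64.6 and 62.1 CPM against 13.6, 9.78 and 10.9. The 2 courses differed by -4.51 ± 0.25 on the log2 scale, Suz12 minus Ezh2 (adjusted p = 6.12e-20), and by day 4 the difference was no longer called (-0.27, adjusted p = 0.394). Ccnd2 on day 1 rose 2.26-fold in WT of the Suz12 series and 88.2-fold in WT of the Ezh2 series (difference -5.30 ± 0.25, adjusted p = 7.19e-20), and by day 4 18.5-fold and 365-fold (difference -4.24 ± 0.25, adjusted p = 2.83e-16). Scaled within each series, its day 4 levels were 1539.4 to 1748.4 CPM in WT of the Suz12 series and 1231.8 to 1504.1 in WT of the Ezh2 series, and its day 0 levels 72.3 to 113 and 2.27 to 4.67 CPM. Ccne1 on day 1 was at 212, 209 and 238 CPM in WT of the Suz12 series, against 199, 206 and 218 on day 0, with no call, and at 447, 411 and 382 CPM in WT of the Ezh2 series, against 56.8, 67.6 and 59.7 on day 0, a 6.74-fold rise (difference -2.69 ± 0.16, adjusted p = 1.49e-18). On day 4 Ccne1 was 1.91-fold below day 0 in the Suz12 series and 1.76-fold above it in the Ezh2 series (difference -1.69 ± 0.16, adjusted p = 1.85e-11). Ccnd3 differed by -1.93 ± 0.30 and Ccne2 by -0.91 ± 0.21 on day 1 (adjusted p = 4.39e-07 and 0.000329), while Cdkn1b differed by 1.30 ± 0.19 in the other direction (adjusted p = 3.22e-07). Of the 10 members 6 differed on day 1 and 4 on day 4, beside 51.4% and 37.9% of all genes, so the share of members was close to that of other genes.

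**Figure D4:**
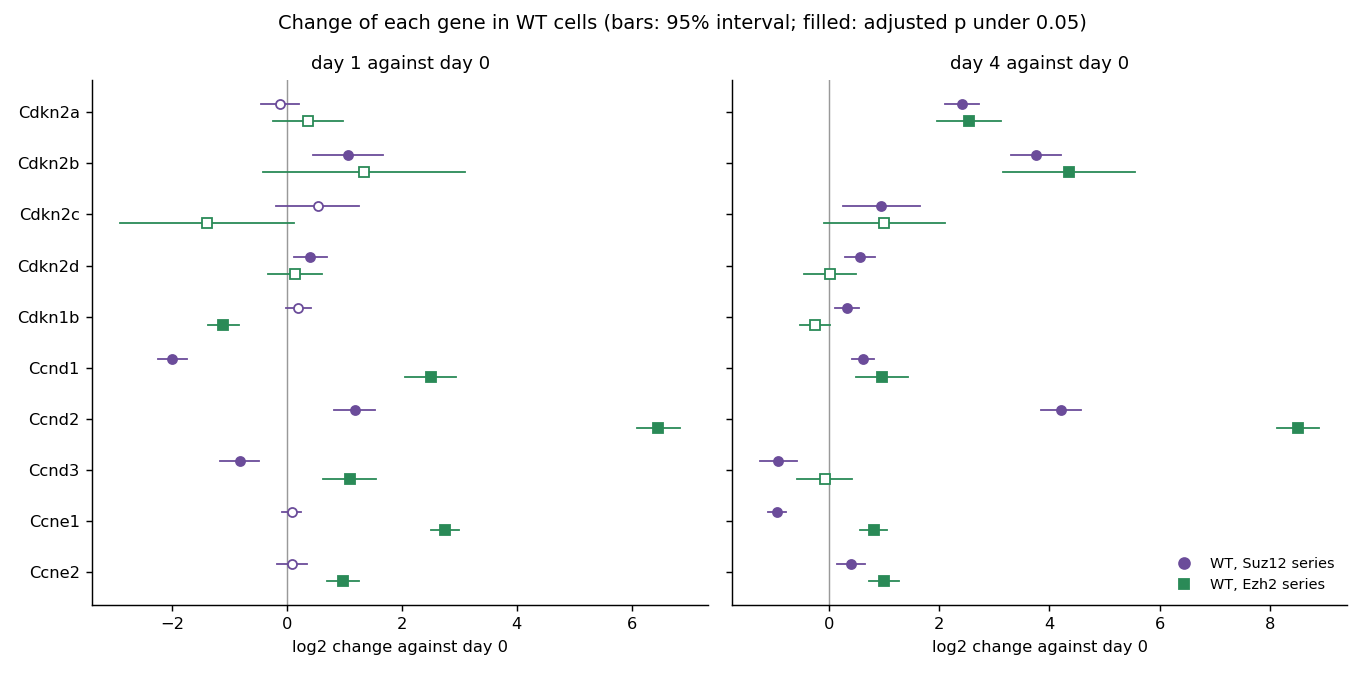
Log2 change of the 10 genes in WT cells on day 1 and on day 4 against day 0, with a panel for each day. Purple circles stand for the Suz12 series and green squares for the Ezh2 series, bars for the 95% interval and filled symbols for an adjusted p under 0.05. On day 1 Ccnd1 lies below 0 in the Suz12 series (3.99-fold lower) and above it in the Ezh2 series (5.65-fold higher), and on day 4 Cdkn2a lies at 2.42 and 2.54.

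The pluripotency markers left at a different pace in the 2 series. Their sum on day 1 was 141 to 154 CPM in WT of the Suz12 series and 1881.5 to 2137.6 in WT of the Ezh2 series, against 2656.3 to 2975.2 and 3972.5 to 4503.3 on day 0, and that of the 9 primitive endoderm markers on day 1 was 1436.7 to 1622 and 50.1 to 59. Cell line, series and pace of differentiation cannot be told apart, and the part of these in the results above was not tested.

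Of the 23 S phase genes known as E2F targets, 3 were called higher and 14 lower on day 1 in WT of the Suz12 series, and 18 higher and 1 lower in WT of the Ezh2 series, beside 61.9% and 46.5% of all genes called in either direction. The median log2 change was -0.26 in the Suz12 series and 0.64 in the Ezh2 series. Mcm10, a replication factor, fell by 1.10 in the Suz12 series, while Rrm2, a subunit of ribonucleotide reductase, rose by 1.71 and Cdc6, which loads the replicative helicase, by 1.51 in the Ezh2 series. By day 4 of WT, 1 was higher and 22 lower in the Suz12 series, with Mcm10 down by 2.33 and Uhrf1, which maintains DNA methylation, by 2.14, and 4 were higher and 7 lower in the Ezh2 series, beside 73.6% and 57% of all genes. Of 12 genes of G2 and M phase, 6 were higher and none lower on day 1 in WT of the Suz12 series. In WT of the Ezh2 series 9 were higher and none lower on that day. These counts stood beside 61.9% and 46.5% of all genes. On day 4, 1 was higher and 11 lower in WT of the Suz12 series, with Cdc20, an activator of the anaphase-promoting complex, down by 1.09. In WT of the Ezh2 series 6 were higher and none lower on day 4. A further list held 24 G1 kinases, Rb family members, E2F factors and their regulators. On day 4 of WT, 6 were higher and 9 lower in the Suz12 series, and 12 higher and 4 lower in the Ezh2 series. The shares of all genes called were 73.6% and 57%. The median log2 change of the list was -0.06 in the Suz12 series and 0.50 in the Ezh2 series. Cdkn1c, the imprinted inhibitor p57, was among those higher, by 6.08 in WT of the Suz12 series and by 7.32 in WT of the Ezh2 series.

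Against WT, the EV-labelled cells of the Ezh2 series had 8 of 23 S phase genes called higher and 1 lower on day 0, beside 29.3% of all genes, with Rrm2 up by 1.59 and Pcna, the sliding clamp, up by 0.76. On day 4 none was higher and 8 were lower, beside 17.8% of all genes, with Cdt1, a licensing factor, down by 0.63, and 4 of 12 genes of G2 and M phase were lower, with Cenpf, a kinetochore protein, down by 0.58. On the same day 3 of 5 genes of the axis from Arf to p53 were higher, namely Cdkn1a (1.35), Ccng1 (1.06) and Mdm2 (1.05), the first an inhibitor of Cdk2, the second a cyclin G that p53 induces and the third the ligase that degrades p53. Of the 24 G1 kinases and regulators, 5, 6 and 5 were higher and 2, 3 and 2 lower on days 0, 1 and 4. The shares of all genes called were 29.3%, 20.9% and 17.8%. Among these 24, Cdkn1c was higher on each day, by 3.94, 2.53 and 1.18. Against WT of the Suz12 series, EV cells had 6 of 12 genes of G2 and M phase called higher on day 0 and none lower, beside 10.8% of all genes. Among them were the mitotic kinases Aurka (0.57) and Plk1 (0.54) and the proliferation marker Mki67 (0.47). Of the S phase genes 2 were higher and 3 lower, and of the 5 genes of the p53 axis 2 were lower, Cdkn1a by 0.53 and Mdm2 by 0.51. Of the 24 G1 kinases and regulators, 3 were higher and 6 lower on day 0, and 2 higher and 1 lower on day 4. On day 1 no gene of the 4 lists was higher, beside 7.91% of all genes called in either direction. Lower on day 1 were 3 genes of the p53 axis, 2 S phase genes and 2 G1 kinases or regulators. EV of the Suz12 series had none of the S phase, G2 and M phase or p53 genes called higher than WT on day 4, beside 7.64% of all genes, and Mdm2 fell by 0.49. In amKR against WT few list genes were called. On day 0 Cdk2, the partner of cyclin E, was 1.06 higher and Orc1, an origin-binding protein, 0.72 higher. On that day 3 of 12 genes of G2 and M phase were lower and none higher, beside 4.48% of all genes. On day 1, 1 of the 24 G1 kinases and regulators and 1 of the 23 S phase genes were higher, beside 1.63%. On day 4 Cdkn1a was 0.40 higher and Cdt1 0.45 lower, beside 1.71%. In ddim against WT no gene of the 4 lists was called on any day.

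Across the 9 group means of a series, the log2 CPM of Cdkn2a and Cdkn2b had a Pearson correlation of 0.92 (Ezh2) and 0.96 (Suz12), over points that share days and lines. Cdkn1b and Ccnd1 had -0.92 and -0.12 in that order of series, and Cdkn2a and Ccne1 -0.17 and -0.95. Among 12169 genes tested in both series, those with the highest correlation in both were, for Cdkn2a, Hmga2 (0.99 and 0.97), a chromatin protein of embryonic cells, then Abat and Timp3; for Cdkn2b, Cdc42, Eda2r and Pcgf3; and for Ccnd2, Sox11 (0.99 in both series), a transcription factor of neural precursors, then Aff3 and Uqcrh. For Ccne1 the first was Ccnf (0.99 in both series), which encodes cyclin F, then Smpd4 and Cdca8. The first 3 were Wnk2, Sct and Shtn1 for Cdkn2c, Timmdc1, Tm9sf2 and Tob2 for Cdkn2d, Slc1a4, Mtmr3 and Ktn1 for Cdkn1b, Ak1, Epas1 and Med28 for Ccnd1, G3bp2, Krtdap and Birc6 for Ccnd3, and Agtpbp1, Crip2 and Mvp for Ccne2.

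The authors' deposited table of symbols titled WTvsKO listed Cdkn2a, Ccnd1 and Ccnd2 among 1004 symbols up on day 0, Cdkn1b among 288 down on day 1 and among 244 down on day 4, and Cdkn2b and Ccnd1 among 543 up on day 4. It listed no member up on day 1, when Cdkn2a and Ccnd1 were called higher in EV-labelled cells than in WT here. None was listed down on day 0, when Cdkn1b and Ccne1 were called lower, and Cdkn2a, called higher on day 4, was not listed up then. The authors' deposited table titled WTvsamKR listed Ccnd1 among 61 symbols up on day 4 and no other member. These lists carry no values.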

How the data were processed

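The deposited files hold raw counts of QuantSeq 3′ FWD reads per Ensembl gene for 54 libraries, made by the authors on mm10 per the submitters' processing notes; the aligner, counter and annotation are not given in the sources used here. The authors' deposited lists of symbols carry no values and were read only for the members' names. Rows that name no gene stayed out of library sizes; their reads without a feature came to 14.55 to 22.75% of the reads in the Ezh2 series and 13.35 to 19.83% in the Suz12 series. The 27 libraries of a series entered 1 model, made with edgeR 4.0.16 under R 4.3.3. It used filterByExpr, TMM, 1 mean per group and a robust quasi-likelihood fit. Benjamini-Hochberg adjustment covered 14086 genes of the Ezh2 series and 14442 of the Suz12 series. A prior count of 2 entered log2 CPM values, as in the offset by chromosome, and was not set in the fit. A call is an adjusted p under 0.05. Standard errors are the log2 change divided by the square root of F, and 95% intervals assume a normal error. A joint fit of 36 libraries (14980 genes) compared the series. DESeq2 1.42.0 served as an alternative. The fits were tested on simulated data. Groups came from the sample labels. Of 36 group pairs per series, same-numbered replicates deviated together (every correlation over 0.1) in 2 for Ezh2 and 0 for Suz12, so replicate number was not used as a block. No library was a duplicate of another within its group, with a chi-square per degree of freedom of 1.409 to 42.41 over 54 pairs, the highest for replicate 2 of the EV-labelled cells on day 4 of the Ezh2 series. The members and lists were chosen with earlier results of these data known. Besides the members and 4 line checks, the named genes were up to 3 called genes per list and comparison with the largest change and a mean of at least 5 CPM, of which the text gives some, the 3 genes most like each member, and 5 neighbours on each side of Cdkn2a. A floor of 3 counts and all counting intervals cover counting error only. Coordinates are from GENCODE M21 on mm10.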

Additional observations from a re-analysis of the deposited data

Results flagged for a closer look

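Each result here is a difference between effects, given on the log2 scale, whose own test had an adjusted p under 0.05 in edgeR's quasi-likelihood test.

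The first kind is a difference between EV and WT that changed after day 0. In the Suz12 series Ccnd2 changed by 1.988 on day 1 and 2.476 on day 4, and Ccne1 by -0.4952 on day 1. In the Ezh2 series, where the EV-labelled libraries go against their label, Ccnd2 changed by -4.258 on day 1 and -3.773 on day 4, and Cdkn1b by -0.6835 and -0.8679.

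The second kind is a change with time in WT that differed between the series, Suz12 minus Ezh2. On day 1 the differences were 1.295 for Cdkn1b, -4.509 for Ccnd1, -5.299 for Ccnd2, -1.933 for Ccnd3, -2.687 for Ccne1 and -0.9093 for Ccne2. On day 4 they were 0.647 for Cdkn1b, -4.236 for Ccnd2, -1.691 for Ccne1 and -0.5394 for Ccne2, the last not called without any 1 of 8 libraries (adjusted p up to 0.106).

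The third kind is a difference of EV from WT that itself differed between the series, Suz12 minus Ezh2. On day 0 it was -1.259 for Cdkn2a, -1.145 for Ccnd1, -5.929 for Ccnd2 and 0.8182 for Ccne1. On day 1 it was 1.355 for Cdkn1b and -0.898 for Ccnd1. On day 4 it was -1.858 for Cdkn2b, -0.7319 for Cdkn2d, 1.235 for Cdkn1b and -1.961 for Ccnd1; that of Cdkn2d was not called without any 1 of 7 libraries (adjusted p up to 0.169, with a difference of -0.514 without WT day 4 replicate 3 of the Ezh2 series), with no filter on low counts (0.0505) or when only the libraries compared were fitted (0.0856). That of Cdkn2a on day 4 was not called (-0.81, adjusted p = 0.106) but was without EV-labelled replicate 2 of the Ezh2 series (-1.07, adjusted p = 0.0124).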

How the results depend on the processing

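The 10 genes gave 159 calls, and 135 of them were kept under every alternative (another scaling, no or a stricter filter, DESeq2, a replicate block, an offset by chromosome, a fit of only the libraries compared, and each library left out in turn). All 159 kept their direction. Among 60 comparisons of a mutant with WT there were 2 calls, against 4 with no filter on low counts, 4 with DESeq2 and 6 when only the libraries compared were fitted, and 1 to 4 without 1 library. The others moved little without 1 library: EV against WT 16 calls (15 to 18), mutant against EV 17 (15 to 19), time 97 (95 to 98), change of the line effect with time 7 (6 to 8) and difference between the series 20 (18 to 22). With the replicate block these 6 counts were 2, 17, 18, 96, 6 and 21. Under that block Ccnd2 in EV against WT on day 4 of the Suz12 series was called (adjusted p = 0.0494), and the day 1 change of Cdkn1b in the Ezh2 series was not (0.0568).

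Calls over all genes moved more. Between amKR and WT there were 631, 230 and 241 on days 0, 1 and 4, against 1807 and 693 on days 0 and 1 when only the libraries compared were fitted, 1022 and 473 with DESeq2, 501 with no filter on day 1, and 151 to 315, 55 to 91 and 84 to 131 without single libraries. Between ddim and WT there were 0, 9 and 22, against 61 and 48 with no filter on days 1 and 4, 14 with DESeq2 on day 1, 0 and 184 when only the libraries compared were fitted, and 0 to 90 and 9 to 12 without single libraries; without ddim replicate 2, day 0 had 1. When only the libraries compared were fitted, EV against WT had 1527 in place of 2510 on day 4 of the Ezh2 series, and 632 and 1854 in place of 1143 and 1104 on days 1 and 4 of the Suz12 series. ddim against EV had 1371 in place of 907 on day 1. The change of the amKR effect by day 4 had 22, against 83 with no filter, 67 with DESeq2 and 48 when only the libraries compared were fitted. The cause was not tested. Depth limits Cdkn2c, with 623 counts in all, and Cdkn2b on day 0.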
